A study of Rattus norvegicus with 4 samples.

Results

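IL-22 is a cytokine of the IL-10 family. The 10 genes described here encode receptor chains of that family, its founding cytokine, a soluble protein that captures IL-22, and Janus kinases. They were taken by name from the table of gene expression, as Il22ra1, Il22ra2, Il20ra, Il20rb, Il10ra, Il10rb, Il10, Jak1, Jak2 and Tyk2, and all 10 had a row among the 17244 gene symbols of the table. The cells were RSC96, a permanent rat cell line labelled as Schwann cells, which are the glia of peripheral nerves, and all were of generation 4 and kept overnight without serum. The IL-22 group (2 libraries) then received recombinant rat IL-22 at 100 ng/ml for 48 h, and the control group (2 libraries) received its solvent, bovine serum albumin at 0.1%, for a time not stated in the labels. Both groups come from a single cell line, and no label says that libraries of a group were separate cultures, so a p-value here measures only how these 4 libraries vary, and that variation may be technical. The title of the series names Schwann cell proliferation and nerve regeneration as its subject.

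The receptors of the IL-10 family belong to the class II cytokine receptors and work as pairs of chains. IL-22 is bound by the chain encoded by Il22ra1 together with the shared chain of Il10rb, and the same Il10rb chain joins that of Il10ra to form the receptor of IL-10. The chains of Il20ra and Il20rb together bind IL-19, IL-20 and IL-24, Il20rb also pairs with Il22ra1, and Il22ra2 encodes a soluble protein that captures IL-22. The chains have no kinase of their own: JAK1 sits on the ligand-specific chain and TYK2 on the IL-10RB chain, and both pass the signal mainly to STAT3. JAK2 serves other receptors, among them those of interferon gamma, growth hormone and the gp130 cytokines.

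Values are FPKM, fragment counts per unit of transcript length and of sequencing depth, as the authors deposited them. Because FPKM is scaled by length, levels of different genes can be set side by side. The deposited FPKM summed to 658909 and 669549 in IL-22 libraries and to 636818 and 630119 in control libraries, and read totals were not given. The spacing of the lowest values put depth, relative to control library 1, at 1.08 in both IL-22 libraries and at 1.28 in control library 2. Between the 2 libraries of a group, Pearson's r across genes, which are no independent replicates, was 0.996 with IL-22 and 0.995 in controls. Of 11 Schwann cell markers with a row, 8 lay under 1 FPKM on average and 3 (Mbp, Cdh19 and Mag) were listed at 0 in every library. Sox10 was listed at 0 and 0 FPKM with IL-22 and at 0 and 0.0315 FPKM in controls, and S100b and Ngfr stayed at or below 0.119 FPKM in every library. The summed level of the Schwann list was 43.5 and 45.2 FPKM with IL-22 and 21.4 and 23.2 FPKM in controls, most of it Pmp22, a myelin membrane protein gene found in many cell types (41.0 and 42.3 FPKM with IL-22, 18.2 and 20.2 FPKM in controls). Pmp22 (1.08 on the log2 scale, limma adjusted p = 8.19e-06) and the neuregulin receptor gene Erbb3 were higher with IL-22 and Gfap was lower, among 3 tested. Of all tested gene rows, 27.6% were called higher and 30.8% lower. Erbb3 and Gfap reached the minimum of 1 FPKM only through the group where each is high, so their calls add nothing to their values. The call of Erbb3 was lost under 3 of 13 alternatives, among them the omission of either IL-22 library (limma adjusted p up to 0.197).

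The promoters of 4 genes named below are shown, each from 250 bases before the start site to 50 after it. They are as RefSeq gives them in the build GRCr8. They belong to a kinase member that was higher, a receptor member that was lower, a receptor member that did not pass, and Il24. Il24 is the cytokine gene nearest to Il10 with a measured response. RefSeq promoters were matched for 5 of the 10 members. None was matched for Il10, Jak1, Tyk2, Il22ra2 and Il20ra, so theirs were not searched. Capitals mark every match, on either strand, to any of 6 motifs, which are those of STAT, AP-1 and NF-kappaB factors, the cAMP response element, the GC box and the TATA box.
Jak2 (chr1:236408655-236408954, plus strand): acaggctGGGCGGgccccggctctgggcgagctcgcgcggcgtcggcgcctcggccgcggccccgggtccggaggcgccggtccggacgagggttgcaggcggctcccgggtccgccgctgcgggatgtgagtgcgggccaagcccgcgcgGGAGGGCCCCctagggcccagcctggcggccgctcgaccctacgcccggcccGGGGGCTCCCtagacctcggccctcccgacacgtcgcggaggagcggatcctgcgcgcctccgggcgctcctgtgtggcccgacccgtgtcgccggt
Il20rb (chr8:109888914-109889213, minus strand): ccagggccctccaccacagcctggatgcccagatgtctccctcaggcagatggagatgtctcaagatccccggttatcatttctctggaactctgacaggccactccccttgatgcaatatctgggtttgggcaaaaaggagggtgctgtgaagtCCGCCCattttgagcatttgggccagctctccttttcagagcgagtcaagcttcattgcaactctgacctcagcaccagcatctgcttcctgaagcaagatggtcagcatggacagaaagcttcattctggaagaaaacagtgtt
Il10rb (chr11:44132386-44132685, plus strand): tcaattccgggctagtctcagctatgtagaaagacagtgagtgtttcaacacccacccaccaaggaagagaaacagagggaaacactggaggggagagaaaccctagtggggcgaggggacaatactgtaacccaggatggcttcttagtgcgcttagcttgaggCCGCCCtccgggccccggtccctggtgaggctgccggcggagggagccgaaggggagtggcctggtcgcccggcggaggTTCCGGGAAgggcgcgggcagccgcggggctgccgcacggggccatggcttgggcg
Il24 (chr13:44910711-44911010, minus strand): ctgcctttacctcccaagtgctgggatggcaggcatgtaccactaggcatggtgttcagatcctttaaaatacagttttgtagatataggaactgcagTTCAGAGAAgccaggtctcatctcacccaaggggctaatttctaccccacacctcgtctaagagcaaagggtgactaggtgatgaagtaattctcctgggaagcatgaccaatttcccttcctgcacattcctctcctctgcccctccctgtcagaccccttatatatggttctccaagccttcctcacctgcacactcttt
Counting from the start site, the Il10rb promoter held a STAT match at position -6 (TTCCGGGAA) and the Il24 promoter held another at position -152 (TTCAGAGAA). The motif searched, TTCNNNGAA, reads alike on both strands, and 8.87% of 33469 rat promoters of this length hold it. The promoters of Il22ra1, Il10ra, Ifnlr1 and Ifngr2 were searched too and are not printed. None of them held a STAT match, and those of Il22ra1 and Ifngr2 held an NF-kappaB match. The Jak2 promoter, 80.3% G and C against a median of 51.7% over all promoters, held a GC box at position -243 and NF-kappaB matches at positions -99 (GGAGGGCCCC) and -47 (GGGGGCTCCC), a motif found in 7.51% of promoters. The Il20rb promoter (52.0% G and C) held a GC box at position -95, searched as GGGCGG and found in 33.1% of promoters, and no match to the other 5 motifs. A GC box also stood in the Il10rb promoter, at position -85. The AP-1 motif, searched as TGANTCA, is in 7.33% of promoters and in none of these 4 windows. The same holds for the cAMP response element, searched as TGACGTCA (1.83% of promoters), and for the TATA box, searched as TATAAA (14.2% of promoters). No position shown here belongs to more than 1 motif. A match is a run of letters and does not show that a factor binds there.

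Il22ra1, Il20ra, Il22ra2 and Il10ra were listed at or near 0 in these cells, while Il10rb and Il20rb lay at 6.34 FPKM or more. Il22ra1 was listed at 0 FPKM in all 4 libraries, and so was Il20ra. A value of 0 was common in this table, with 5001 of 17244 symbols (29.0%) at 0 in every library, and 1 of 74 ribosomal protein genes was at 0 in some library, so these genes are described only as listed at 0. Il22ra2, the gene of the soluble IL-22 binding protein, was at 0 and 0.0451 FPKM with IL-22 and at 0 in both controls. Il10ra, the ligand-binding chain of the IL-10 receptor, was at 0.0692 and 0 FPKM with IL-22 and at 0.15 and 0.0584 FPKM in controls. Scaled by relative depth, the values of Il10ra are whole multiples, within 0.1, of its smallest step. They were 1 and 0 steps with IL-22 and 2 and 1 in controls. Il22ra2 had a single value above 0, in IL-22 library 2, which is 1 step by definition. The groups of both genes overlapped, and these 4 genes, all under a mean of 1 FPKM, were not tested.

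**Figure D1:**
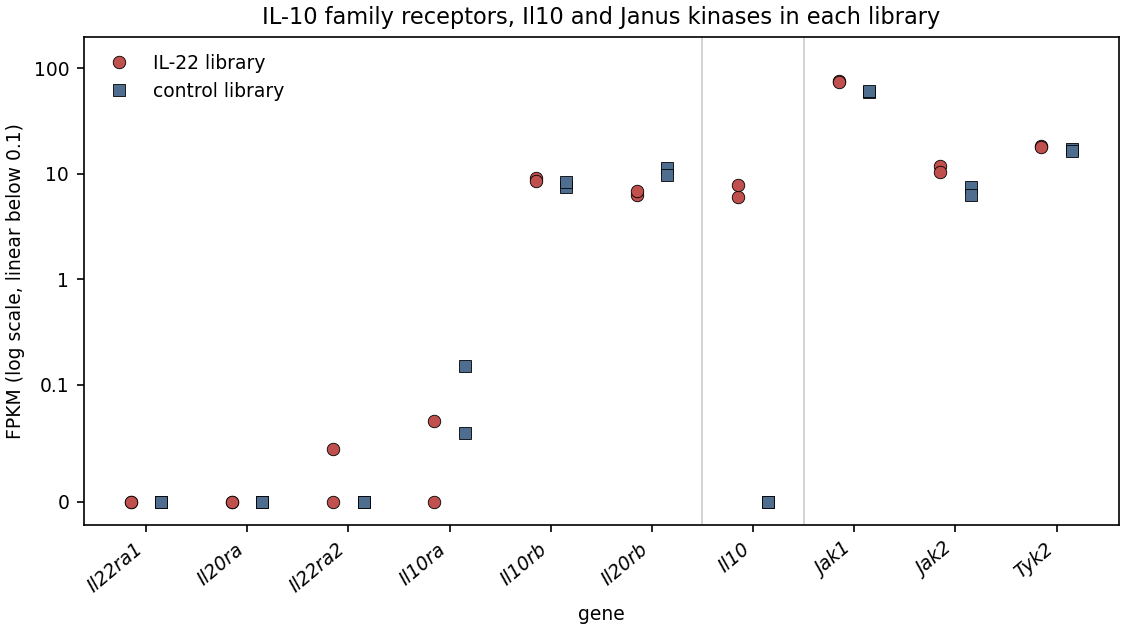
FPKM of the 10 members in each library (vertical axis logarithmic, linear below 0.1), with IL-22 libraries as circles and control libraries as squares, receptors at the left, Il10 in the middle and Janus kinases at the right. Il22ra1 and Il20ra lie at 0 in all 4 libraries, Il10 at 6.09 and 7.88 FPKM with IL-22 and at 0 in both controls, and Jak1 highest in both groups.

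The shared chain Il10rb measured 9.18 and 8.48 FPKM with IL-22 and 7.53 and 8.39 FPKM in controls. The IL-22 libraries lay above the controls by a narrow margin, and the difference of 0.13 ± 0.11 on the log2(FPKM + 1) scale did not pass the limma test over all genes (adjusted p = 0.301). Differences are given with their standard error, and a positive one means higher with IL-22. Il20rb, the shared chain of the IL-20 receptors, measured 6.34 and 6.82 FPKM with IL-22 and 11.3 and 9.76 FPKM in controls. Its groups did not overlap, and it was 0.624 times as high with IL-22 as in controls (difference -0.60 ± 0.11, limma adjusted p = 0.00144). It was the only member that fell, and it fell under all 14 alternatives tried. Over all 9485 gene rows tested, 58.4% were called at a limma adjusted p under 0.05, 27.6% higher and 30.8% lower with IL-22, so a call alone sets no member apart. In a bulk sample, fewer cells that make an RNA and less of it per cell cannot be told apart.

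Set pair by pair, the receptors of IL-22, IL-10 and the IL-20 group each had a chain at or near 0 in every library. The IL-22 receptor paired Il22ra1 at 0 with Il10rb at 8.83 ± 0.497 FPKM with IL-22 and 7.96 ± 0.609 FPKM in controls (mean ± SD, n = 2 libraries each). The IL-10 receptor paired the same Il10rb with Il10ra, which was at 0.15 FPKM or less throughout. Il20rb, at 6.58 ± 0.341 FPKM with IL-22 and 10.6 ± 1.12 FPKM in controls, had neither Il20ra nor Il22ra1 above 0 beside it. These are levels of mRNA, and protein was not measured.

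Il10, which encodes the anti-inflammatory cytokine that names the family, was listed at 0 in both control libraries and at 6.09 and 7.88 FPKM with IL-22. In IL-22 libraries it lay above 58.8% of all symbols, and its libraries spanned those of Il20rb. Its difference was 2.99 ± 0.17 (limma adjusted p = 1.49e-06) with a pseudocount of 1, a size that rests on that choice, at 6.14 with a pseudocount of 0.1 and 1.26 with a pseudocount of 5. No fold is given against a group listed at 0. Il10 reached the minimum of 1 FPKM set for testing only through its IL-22 libraries, so a gene of its pattern had to differ once it was tested. Of 5721 symbols listed at 0 in both controls, 197 were above 0 in both IL-22 libraries and 4 were at 1 FPKM or more in both, and Il10 was the highest of these by its lower IL-22 library. After it came Ang, which encodes angiogenin (3.52 and 3.07 FPKM with IL-22), Prok2, which encodes the secreted peptide prokineticin 2 (2.02 and 2.35 FPKM), Terc, the RNA of telomerase (1.64 and 1.09 FPKM), Lcn2, which encodes the iron-carrier-binding lipocalin 2 (0.978 and 1.14 FPKM), and Inhbe, an activin subunit gene (0.907 and 1.04 FPKM). In the other direction, of 5382 symbols listed at 0 in both IL-22 libraries, 69 were above 0 in both controls and 3 were at 1 FPKM or more in both.

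Leukocytes are the usual makers of IL-10, and their markers were low. Of 17 macrophage and leukocyte markers with a row, 15 had a mean under 1 FPKM and 7 were at 0 in every library, among them Aif1, Tyrobp and Cd8a. Ptprc, which encodes the pan-leukocyte antigen CD45, was at 0.0252 and 0 FPKM with IL-22 and at 0 in both controls. The summed level of the list was 7.12 and 4.40 FPKM with IL-22 and 4.58 and 4.19 FPKM in controls, of which Cd14, the endotoxin coreceptor gene, made 4.61 and 2.47 FPKM with IL-22 and 2.22 and 2.16 FPKM in controls. The tested markers, Cd14 and Cd68, did not pass the limma test (adjusted p = 0.0833 and 0.126). Each passed under 2 of 13 alternatives. These were the omission of IL-22 library 2 and the replicate number as a block for Cd14, and quantile scaling and no variance trend for Cd68. Cd68 reached the minimum of 1 FPKM only through its control libraries, so its tests add nothing to its values. Cd68 was lower in both IL-22 libraries (0.998 and 0.775 FPKM with IL-22, 1.56 and 1.21 FPKM in controls), and so was Csf1r, the receptor gene of a macrophage growth factor (0.514 and 0.449 FPKM with IL-22, 0.696 and 0.814 FPKM in controls). Ptprc, Csf1r, Itgam, Spi1, Lyz2 and Cd3e were picked after their values were seen, and the last 4 were above 0 in both IL-22 libraries, at 0.103 to 0.487 FPKM, and at 0 to 0.105 FPKM in controls. The part of these low signals in the Il10 value was not tested.

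Among 16 genes known from leukocytes to control Il10 transcription or the decay of its mRNA, 11 were tested, 8 rose and 2 fell, with a median difference of 0.67 against -0.022 over all 9485 tested gene rows, of which 27.6% were called higher and 30.8% lower. Maf, a transcription factor that activates Il10 in macrophages and T cells, fell to 10.4 and 9.92 FPKM with IL-22, against 43.2 and 41.8 FPKM in controls (-1.96 ± 0.08, limma adjusted p = 2.72e-07). Nfil3, a transcription factor gene linked to Il10 in T cells, rose to 27.3 and 28.2 FPKM with IL-22, against 9.76 and 9.64 FPKM in controls (1.43 ± 0.08, limma adjusted p = 1.99e-06). Cebpb, which encodes a C/EBP factor, measured 194 and 209 FPKM with IL-22 and 89.2 and 79.8 FPKM in controls (1.25 ± 0.07, limma adjusted p = 2.39e-06). The second gene that fell was Rps6ka4, of a kinase upstream of CREB (-0.64), named after its values were seen. The list holds genes of transcription and of mRNA decay together, so its median gives no direction for Il10. Stat3 and Cebpb, which both rose, are also counted in other lists below. This list too was chosen with earlier results of these data known and is no independent support.

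In the RefSeq gene order of GRCr8, Il10 stands in a row with the family cytokines Il24, Il20 and Il19, and Il19 had no row in this table. Il24, whose product acts through the IL-20 receptors, measured 4.50 and 3.57 FPKM with IL-22 and 0.125 and 0.292 FPKM in controls. In steps of the smallest value these were 39 and 31 with IL-22 and 1 and 3 in controls. It rose by limma (2.06 ± 0.17, adjusted p = 1.59e-05), by 3.79 with a pseudocount of 0.1 and 0.79 with a pseudocount of 5. Like Il10, it reached the minimum for testing only through its IL-22 libraries, so this test is no support beyond the values themselves. Il20, which lies between Il24 and Il10, was at 0 and 0.0955 FPKM with IL-22 and at 0 in both controls. On the other side of Il10 stood Mapkapk2, a stress kinase gene, at 77.8 and 79.5 FPKM with IL-22 and 75.7 and 74.2 FPKM in controls, which did not pass the test. Beyond Mapkapk2, Dyrk3 measured 8.34 and 8.46 FPKM with IL-22 and 5.43 and 7.20 FPKM in controls. It was called higher (0.37, limma adjusted p = 0.0355), and Eif2d, the next gene, did not pass. Of the 7 other ligand genes listed, only Il24, Il20 and Il22 had a row, and Il22 was at 0 in every library.

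**Figure D2:**
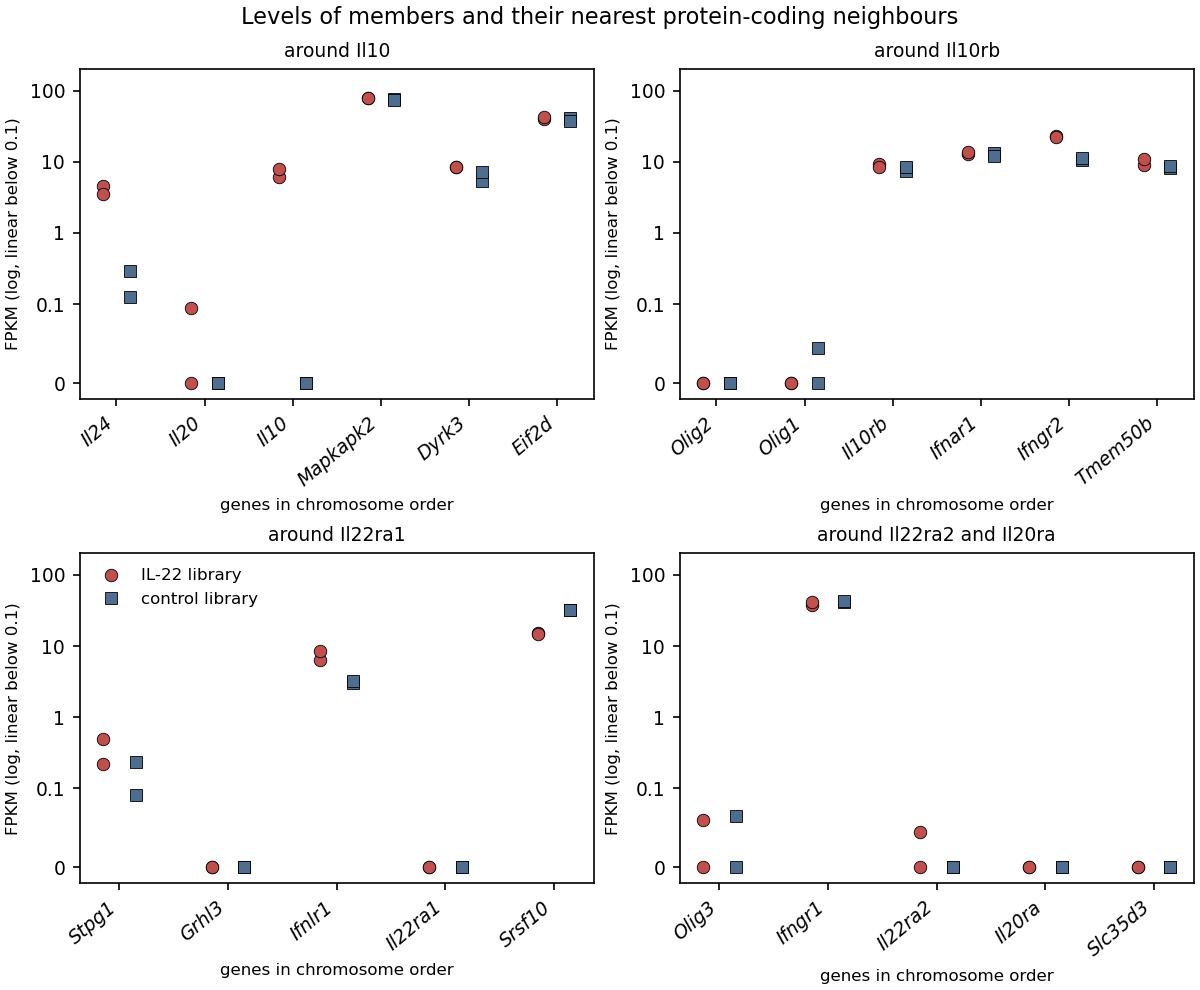
FPKM (vertical axis logarithmic, linear below 0.1) of 4 groups of neighbouring protein-coding genes in chromosome order, with genes without a row left out, IL-22 libraries as circles and control libraries as squares. Il24 and Il10 lie higher with IL-22 beside Mapkapk2 at 77.8 and 79.5 FPKM, and Dyrk3 beyond it lies higher too. Ifngr2 lies higher beside Il10rb and Ifnar1, and Ifnlr1 lies higher beside Il22ra1 at 0, near which Srsf10 lies lower.

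Other class II receptor genes lie next to Il22ra1, Il22ra2 and Il10rb, and their levels differed from those of these members. The neighbours were taken by position, after the values were seen. Il22ra1, at 0, stands beside Ifnlr1, which encodes the ligand-binding chain of the type III interferon receptor and partners Il10rb. Ifnlr1 measured 6.32 and 8.47 FPKM with IL-22 and 3.03 and 3.24 FPKM in controls, a 2.36-fold rise (1.01 ± 0.14, limma adjusted p = 0.000348). Il10rb stands beside Ifnar1 and then Ifngr2, the signalling chains of the receptors of type I interferon and interferon gamma. Ifngr2, which carries JAK2, rose 2.08-fold, to 23.3 and 22.3 FPKM with IL-22, against 10.6 and 11.3 FPKM in controls (0.99 ± 0.09, limma adjusted p = 1.96e-05). Ifnar1, at 12.8 and 13.8 FPKM with IL-22 and 13.1 and 12.2 FPKM in controls, overlapped between the groups (limma adjusted p = 0.583). Il22ra2 and Il20ra lie beside Ifngr1, which measured 38.1 and 41.9 FPKM with IL-22 and 40.9 and 42.5 FPKM in controls and did not pass (limma adjusted p = 0.519), with a sign that turned under quantile scaling and without IL-22 library 1. Ifnar2, also next to Il10rb, had no row. F3, the gene of tissue factor, which belongs to the family by structure and starts coagulation, rose 3.28-fold, to 33.8 and 30.3 FPKM with IL-22, against 9.86 and 9.66 FPKM in controls (1.62 ± 0.09, limma adjusted p = 1.42e-06). In all, 3 of 5 tested receptors of this list rose and the others did not pass, where 27.6% of all tested rows were called higher, with a median of 0.99, or 0.60 with a pseudocount of 5.

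Jak1 and Tyk2 lay above each of the 6 member receptor genes in all 4 libraries, and Jak1 and Jak2 were higher with IL-22. Jak1 measured 76.8 and 75.1 FPKM with IL-22 and 59.6 and 61.0 FPKM in controls, a 1.26-fold rise (0.33 ± 0.06, limma adjusted p = 0.0022) that lay above 92.5% of symbols with IL-22 and 90.0% in controls. Jak2 measured 11.8 and 10.3 FPKM with IL-22 and 7.45 and 6.29 FPKM in controls, a 1.61-fold rise (0.61 ± 0.12, limma adjusted p = 0.00178). Tyk2, the kinase of the Il10rb chain, measured 18.2 and 18.0 FPKM with IL-22 and 17.1 and 16.6 FPKM in controls. Its groups did not overlap, but the difference of 0.10 ± 0.08 did not pass (limma adjusted p = 0.321). Jak3, which is no member and is best known from lymphocytes, measured 41.5 and 41.8 FPKM with IL-22 and 34.3 and 34.5 FPKM in controls. It passed limma (0.27 ± 0.07, adjusted p = 0.00884), a call lost when either IL-22 library was left out (adjusted p up to 0.0637 over 14 alternatives). Il2rg, which encodes the receptor chain that JAK3 is known to bind, was listed at 0 in every library and is named after its values were seen.

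The kinases can also be set against each other within a library. The summed FPKM of Jak1, Jak2 and Tyk2 was 107 and 103 with IL-22 and 84.1 and 83.9 in controls. Jak2 held 11.0% and 9.96% of that sum with IL-22 and 8.86% and 7.49% in controls, and Tyk2 held 17.1% and 17.4% with IL-22 and 20.3% and 19.8% in controls. The shares of both kinases did not overlap between the groups, with differences of 2.32 and -2.81 percentage points. The share of Jak1 overlapped, at 71.9% and 72.6% with IL-22 and 70.8% and 72.7% in controls, though with Jak3 in the sum it did not. An exact two-sided permutation test of 2 libraries against 2 cannot go below p = 0.33, which it gave for Jak2 and Tyk2, while it gave p = 1 for Jak1.

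**Figure D3:**
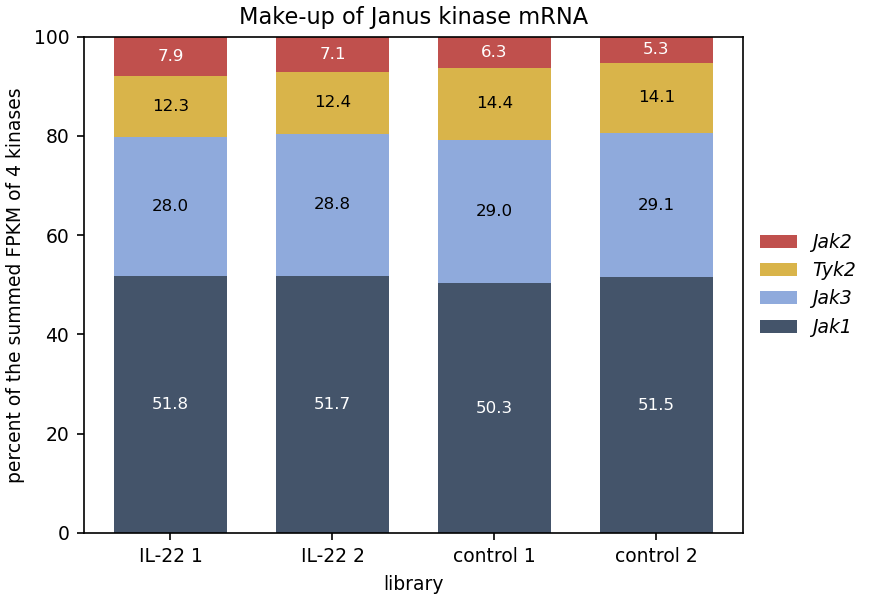
Share of each Janus kinase in the summed FPKM of Jak1, Jak3, Tyk2 and Jak2 in each library, as stacked bars with the percentage printed. With Jak3 in the sum, Jak2 made 7.94% and 7.09% in IL-22 libraries and 6.29% and 5.31% in controls, and Jak1 made 51.8% and 51.7% with IL-22 and 50.3% and 51.5% in controls.

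Put in order of level, Jak1 and then Tyk2 led the members in both groups, and the order below them differed. With IL-22 there followed Jak2 (11.0 ± 1.04 FPKM), Il10rb, Il10 (6.99 ± 1.27 FPKM) and Il20rb, and in controls Il20rb, Il10rb and Jak2 (6.87 ± 0.821 FPKM). Neighbours in these orders did not overlap over their libraries, other than Il10 and Il20rb with IL-22. Il10ra, Il22ra2, Il22ra1 and Il20ra stood last in both groups, joined by Il10 in controls, at values at or near 0 that give no order.

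Of the 10 members, 6 passed the minimum for testing, and of these 3 were called higher (Il10, Jak1 and Jak2), 1 lower (Il20rb) and 2 not (Il10rb and Tyk2). With 58.4% of all tested rows called, that count says nothing particular about the members. The groups did not overlap for any of the 6, as for 80.1% of all tested rows. The calls of Jak1, Jak2 and Il20rb held in every fit that leaves out 1 library, where the lone library of a group is assumed to vary like the pair in the other group. For Il10, which had to differ once tested, such fits say nothing of stability.

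**Figure D4:**
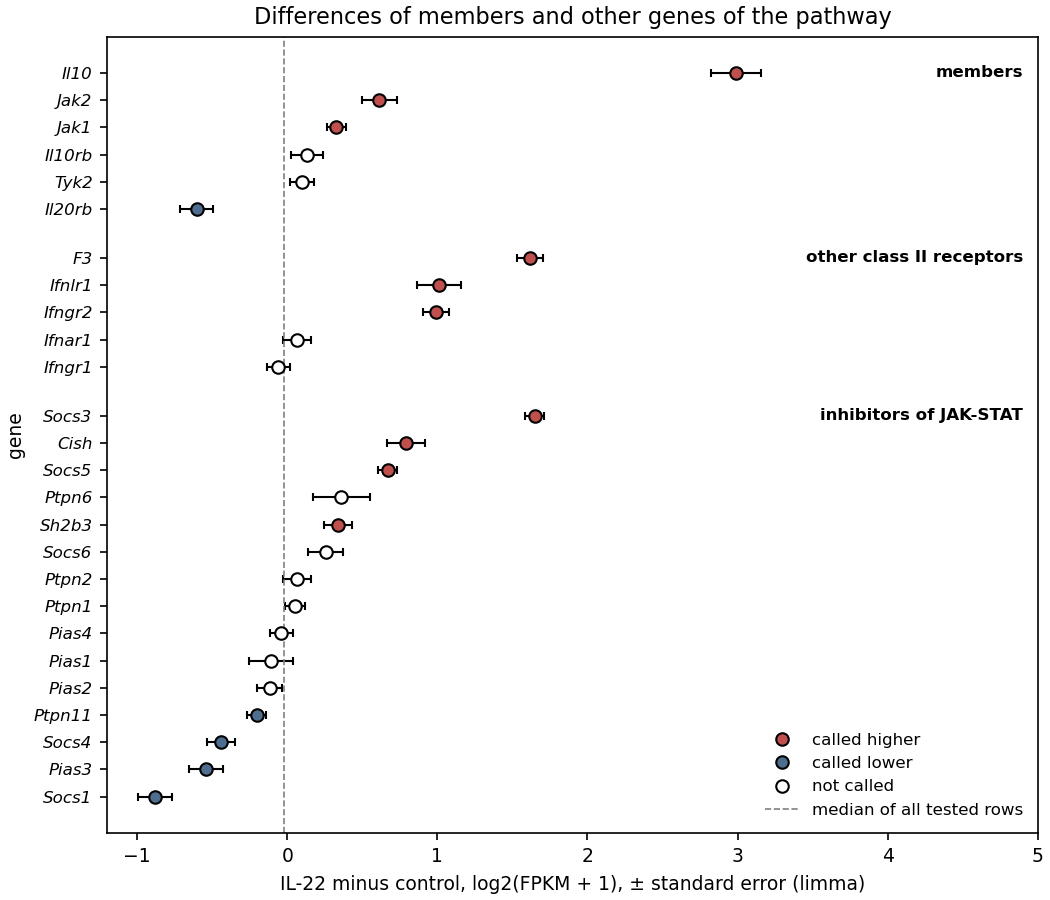
Differences in log2(FPKM + 1), IL-22 less control, with standard errors from limma, for the tested members and the lists of other class II receptors and of inhibitors, filled by whether the gene was called higher, called lower or not called. Il10 (2.99), Socs3 (1.65) and F3 (1.62) lie farthest to the right, Socs1 (-0.88) farthest to the left, and the dashed line marks the median of all tested rows (-0.022).

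Among the other transducers of the pathway all 8 tested genes were called, 5 higher and 3 lower, with a median of 0.29. This and the counts of the lists below stand beside 27.6% of all tested rows called higher and 30.8% called lower. Stat3, the main target of these receptors, rose to 73.8 FPKM in both IL-22 libraries, against 46.8 and 45.3 FPKM in controls, a 1.60-fold rise (0.67 ± 0.07, limma adjusted p = 3.95e-05). Stat6, which serves IL-4, fell to 40.8 and 42.4 FPKM with IL-22, against 57.0 and 58.4 FPKM in controls (-0.46 ± 0.07, limma adjusted p = 0.000418). Stat5a measured 8.05 and 7.49 FPKM with IL-22 and 5.71 and 5.38 FPKM in controls (0.42 ± 0.11, limma adjusted p = 0.00856), a call lost without IL-22 library 1. The count of higher genes dropped to 3 when either IL-22 library was left out, and that of lower genes to 1 without IL-22 library 1.

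The inhibitors that close the pathway moved both ways, with 4 higher, 4 lower and 7 not called of 15 tested and a median of 0.05. Socs3, which blocks JAK activity at the receptor, measured 498 and 533 FPKM with IL-22 and 161 and 166 FPKM in controls, a 3.15-fold rise (1.65 ± 0.06, limma adjusted p = 1.99e-07). Cish, a related inhibitor of STAT5 signalling, rose to 4.85 and 5.25 FPKM with IL-22, against 2.55 and 2.44 FPKM in controls (0.79 ± 0.13, limma adjusted p = 0.000647). Socs1, another inhibitor of JAK activity, fell to 3.43 and 3.55 FPKM with IL-22, against 7.03 and 7.47 FPKM in controls (-0.88 ± 0.11, limma adjusted p = 0.000196). JAK chaperones and adaptors gave 2 higher and 3 lower of 7 tested, with a median of 0.014. Hsp90aa1, a chaperone gene whose product keeps Janus kinases folded, fell to 115 and 107 FPKM with IL-22, against 222 and 219 FPKM in controls (-0.98 ± 0.06, limma adjusted p = 3.87e-06). Stam, of an adaptor that binds Janus kinases (0.87), and Cblb, of a ubiquitin ligase (1.03), rose.

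Of 32 genes known to answer STAT3 or IL-22 in other tissues, 30 had a row, 17 were tested, 15 rose and the others did not pass, with a median of 0.92 (1.14 and 0.63 with pseudocounts of 0.1 and 5). Cebpd, a C/EBP factor gene, rose to 108 FPKM in both IL-22 libraries, against 13.9 and 11.0 FPKM in controls (3.02 ± 0.10, limma adjusted p = 1.13e-07). Bcl3, of a nuclear IkappaB protein (2.79), and Icam1, of an adhesion molecule (2.21), also rose. Of the epithelial IL-22 response genes Reg3a, Reg3b, Reg3g, S100a8 and S100a9, named after their values were seen, each was listed at 0 in every library. Others of the list under the minimum for testing were above 0. Lcn2 was at 0.978 and 1.14 FPKM with IL-22 and at 0 in both controls. Fut2 and Muc1, also named after their values were seen, were above 0 in every library. Fut2 was at 0.443 and 0.403 FPKM with IL-22 and 0.393 and 0.136 FPKM in controls. Muc1 was at 0.532 and 0.745 FPKM with IL-22 and 0.404 and 0.809 FPKM in controls. Earlier results of these data showed the rise of STAT3 target genes, so this list is no independent support.

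Other receptors that use Janus kinases gave 6 higher, 1 lower and 4 not called of 11 tested, with a median of 0.33, and 11 of the 27 with a row were listed at 0 in every library. Il3ra, the IL-3 binding chain, rose to 5.34 and 5.52 FPKM with IL-22, against 2.49 and 2.64 FPKM in controls (0.85 ± 0.12, limma adjusted p = 0.000365). Ghr, the growth hormone receptor gene, which uses JAK2, measured 6.67 and 7.61 FPKM with IL-22 and 2.75 and 4.46 FPKM in controls (0.84 ± 0.17, limma adjusted p = 0.0028), and Il4r, the IL-4 receptor gene, 17.1 and 18.0 FPKM with IL-22 and 11.1 and 11.6 FPKM in controls (0.58 ± 0.09, limma adjusted p = 0.000471). The lower gene was Il11ra1 (-0.28), named after its values were seen, and its call was lost under 5 of 14 alternatives, among them those that omit control library 1 and IL-22 library 1. Of 4 tested fibroblast and epithelial markers 1 was higher (Pdgfra, 0.33) and 2 lower (Col1a1, -0.55, and Col1a2, -0.23), with a median of -0.017 and a summed level of 162 and 169 FPKM with IL-22 and 207 and 178 FPKM in controls. Pdgfra lost its call when control library 2 or either IL-22 library was omitted, Col1a1 when control library 1 was, and Col1a2 when control library 1 or either IL-22 library was.

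Over the 4 libraries the genes most like Jak2 were Arl8b and Arl5b, of small GTPases, Ctps2, of a CTP synthase, Grhpr, of a glyoxylate reductase, and Xkr8, of a phospholipid scramblase. Likeness was the distance between log2(FPKM + 1) values centred on each gene's mean, and these 5 lay at 0.030 to 0.063 from Jak2, where the median of 9306 genes was 0.715. Ctps2, the second nearest after Arl8b, measured 5.74 and 5.04 FPKM with IL-22 and 3.37 and 2.75 FPKM in controls. In all 217 genes lay within 0.2, so the pattern was a common one. Next to Jak2 on its chromosome, Rcl1, a ribosome assembly gene, fell to 14.8 and 16.3 FPKM with IL-22, against 28.1 and 26.1 FPKM in controls (-0.76, limma adjusted p = 9.48e-05), and Insl6, an insulin family gene, was at 0 in every library. Also near Jak2, Plgrkt (0.31) was higher, Cdc37l1 (-0.31) was lower and Ak3 did not pass. Beside Il20rb, the adaptor gene Nck1 was lower (-0.81, limma adjusted p = 0.000491). It measured 7.56 and 5.85 FPKM with IL-22 and 12.1 and 12.7 FPKM in controls. Stag1, also near Il20rb, was lower (-0.41), and Dzip1l did not pass. Near Jak1, the 3 tested neighbours Cachd1 (0.71), Ak4 (0.51) and Dnajc6 (0.33) were higher. Raver2, also beside Jak1 and under the minimum for testing, measured 1.24 and 0.795 FPKM with IL-22 and 0.108 and 0.042 FPKM in controls. Near Il22ra1, Srsf10 was lower (-1.04, limma adjusted p = 7.73e-06), while Tmem50b near Il10rb and Pex7 near Il20ra did not pass. Near Tyk2, Fdx2 (listed as Fdx1l, -0.38) and Raver1 (-0.30) were lower and Cdc37, Pde4a and Keap1 did not pass. These calls of neighbours stand beside 27.6% of all tested rows called higher and 30.8% called lower.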

How the data were processed

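RNA of RSC96 cells was enriched for poly(A) transcripts, made into libraries and read on an Illumina sequencer (source: the labels' protocols). FPKM per gene are the values the authors deposited, 1 column a library. The submitters' processing notes name rn5, TopHat2 and Cuffdiff with no versions or roles, and the sources used here give neither annotation nor scaling. Nothing states whether strand was used, so overlapping genes cannot be told apart. A table of lncRNAs was not used, and some genes of the lists are not reported here by name.

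Where rows shared a symbol, the row of highest mean was used, and each member had 1 row. The test was limma 3.58.1 (R 4.3.3) on log2(FPKM + 1), run on the 9485 of 17778 rows whose mean reached 1 FPKM (trend, two-sided, no covariates, Benjamini-Hochberg adjusted p under 0.05). Fits were tested on simulated data. Relative depth is the commonest ratio of rows under 0.15 FPKM. That ratio was shared by 44 of 291 rows in IL-22 library 1, 37 of 277 in IL-22 library 2 and 151 of 371 in control library 2. Read totals are unknown, which leaves no basis for counting intervals. Symbols matched RefSeq (GRCr8) directly for 14649 of 17244. That gene table, of another build than the deposited values, was used for names and gene order only. The promoter sequences are of the build GRCr8 as well.

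Members and the 11 other lists were chosen with earlier results of these data known. Named were all members, in each list up to 3 called genes by size (all of a list of at most 7, or the 2 highest where none was called), the 5 genes most like Il10 and Jak2, Stat3, Socs3, Sox10, S100b and Ngfr, and markers listed at 0 in every library; neighbours were taken by position. Alternatives were other pseudocounts (0.1, 5) and filters (none, 0.1, 5), quantile and median-of-ratios scaling, other variance models, the replicate number as a block and leaving out each library. Figures were made with Python 3.11.15 and matplotlib 3.10.9.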

Additional observations from a re-analysis of the deposited data

How the results depend on the processing

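Il20rb, Jak1 and Jak2 kept their direction and call under all 14 alternatives, and so did Il10 under the 13 that test it, though its pattern had to differ once tested; a filter of 5 FPKM removes it. Il10rb and Tyk2 passed under none of the 14. Over the alternatives the differences lay between -0.70 and -0.42 for Il20rb (limma adjusted p up to 0.0251), 0.31 and 0.40 for Jak1 (up to 0.0227), 0.43 and 0.72 for Jak2 (up to 0.0311) and 1.26 and 6.14 for Il10 (up to 0.00271). Over all rows, leaving out each library gave 2120 to 2281 genes higher and 2361 to 2491 lower. With Jak3 added to the sum, the difference in the share of Tyk2 was -1.89 percentage points, since a larger sum makes each share smaller. In that sum the share of Jak1 no longer overlapped between the groups (0.824 percentage points, exact permutation p = 0.33), and without Jak3 its difference was -0.438 points when control library 1 was left out, against 0.497 points with all libraries. Same-numbered libraries share only a number, and the correlation of their deviations from the group means was -0.00197 over 9485 rows. With that number as a replicate block, 2755 genes were higher and 3070 lower. Without the filter, where they enter the fit, Il10ra and Il22ra2 did not pass (limma adjusted p = 0.342 and 0.617). With 2 libraries a group and unknown read totals, values listed at 0 and those of a few steps set no limit on true expression.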
